A study of Rattus norvegicus with 13 samples.

Results

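Integrins are paired cell surface receptors, each made of an alpha and a beta subunit, that bind the extracellular matrix outside the cell and the actin or keratin skeleton inside it. The subunits described here are those that epithelium and connective tissue are known to use: Itga1, Itga2 and Itga11 of the collagen receptors, Itga3, Itga6 and Itgb4 of the laminin receptors, Itga5, Itgav and Itgb6 of the receptors for fibronectin and related ligands, and Itgb1, the beta subunit that most of these alpha subunits share. They were listed by gene symbol, with earlier results of these data known, so the list is not independent of these arrays. Of the 10, 9 have a probe set annotated to them among the 14217 genes measured. Itga2 has none under that symbol and was not analysed here. Where a gene had several probe sets, the one with the highest mean over all 13 arrays stood for it.

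The arrays come from cholangiocarcinoma, which arises from bile ducts, in rats of Fischer 344 background. The 4 tumours were intrahepatic cholangiocarcinomas of young adult male rats that arose from BDEsp cells, a spontaneously transformed rat bile duct cell line, and were snap-frozen on removal. A single array was labelled as tumour-derived epithelial cells in co-culture with fibroblastic cells and 1 as fibroblastic cells in co-culture with epithelial cells. The epithelial line grown alone (clone H10, 3 arrays) and the fibroblastic line grown alone (clone E4, positive for alpha smooth muscle actin, 4 arrays) came from such tumours, and each is a single clone. All cultures grew within gelled type I collagen from rat tail, so the cultured cells met a collagen matrix whether or not they made one. Values are log2 expression values computed by the authors with RMA, a method that summarises the probes of an Affymetrix array, so a difference of 1 is a 2-fold change. Levels are compared for 1 gene across arrays, never between genes.

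Background on the receptors helps in reading the groups. Itgb1 pairs with Itga1 and Itga11 to bind fibrillar and other collagens, with Itga3 and Itga6 to bind laminins, and with Itga5 to bind fibronectin. Itgb4 pairs only with Itga6 and anchors epithelial cells to the basement membrane in hemidesmosomes. Itgb6 pairs only with Itgav, is largely a subunit of epithelia, and the pair activates latent TGF-beta.

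The whole series sets some limits. Array medians lay between 6.15 and 6.25, and the correlation between replicate arrays ran from 0.904 to 0.991 for tumours, from 0.968 to 0.975 for epithelial arrays and from 0.947 to 0.990 for fibroblastic arrays. Most markers bore out the labels of the lines and tumours: the mean over 8 epithelial markers was 11.69 to 12.31 in the tumours, while the epithelial line had 12.24 to 12.76 and the fibroblastic line 4.52 to 5.11. Of 10 fibroblastic markers, 8 were called lower in the epithelial than in the fibroblastic line and 2 were not called. The markers Dcn and Lum averaged only 5.49 and 4.28 in the fibroblastic line, against 12.20 and 11.76 in the tumours. The tumours also held markers of other cells, with 14 of 14 macrophage and myeloid markers, 8 of 9 lymphocyte markers, 7 of 9 endothelial markers and 10 of 10 hepatocyte markers called above both lines on group means, against 12.0% of all genes. The tumours were uneven in hepatocyte markers, whose mean ran from 5.94 to 13.09 over the tumour arrays. Their lowest value was inside the epithelial range for Apoa1 (4.82, against 4.14 to 5.00) and above it for Alb (7.50, against 4.78 to 5.11). Among these markers Hnf4a varied less, at 10.71 to 11.39 in the tumours, and reached 8.35 in the epithelial line. The myeloid marker Cd14 was at 8.57 to 11.34 in the epithelial line and overlapped the tumours (11.23 to 11.83). Not every marker counted was thus low in both lines. In whole tissue, fewer cells of a type and less RNA per cell cannot be told apart.

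The co-culture arrays did not match their labels of a single cell type. Krt19, a bile duct keratin, was at 13.21 in the array labelled fibroblastic co-culture, against 4.01 to 4.29 in the fibroblastic line alone. Col1a2, a chain of type I collagen, stood at 13.37 in the array labelled epithelial co-culture, against 3.70 to 4.63 in the epithelial line alone. Epcam, an epithelial adhesion molecule, and Postn, the matrix protein periostin, did the same, with Epcam at 11.96 in the fibroblastic co-culture array, against 3.66 to 4.39 in the fibroblastic line, and Postn at 10.83 in the epithelial co-culture array, against 3.60 to 4.05 in the epithelial line. Each array thus held transcripts marking both lines, but not all fibroblastic markers rose. The fibroblastic marker mean was 9.47 and 9.77 in the epithelial and fibroblastic co-culture arrays. Arrays of the epithelial line had means of 5.37 to 5.50, those of the fibroblastic line 11.33 to 11.53. In the epithelial co-culture array the markers Col1a1, Col3a1, Vim and Pdgfrb also exceeded the epithelial range. Acta2 was inside it there (7.56, against 6.37 to 7.90), and Dcn (4.40) and Lum (3.37) did not exceed it. Tagln (7.82) lay between the epithelial (6.09 to 6.32) and fibroblastic (11.91 to 14.36) ranges. Fibroblastic cells were plated at various densities, and which density these arrays had, and whether and how the cells were separated, the sources used here do not give, so both arrays are set against both lines below.

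The comparison of the 2 lines grown alone asks which receptors the cancer cells and the fibroblastic cells carry without contact. The subunits fell into sets by the direction of their difference. Itgb6, Itgb4, Itga3 and Itga6 were higher in the epithelial line, and Itga1, Itga11, Itgav, Itga5 and Itgb1 were lower in it, by limma at an adjusted p under 0.05. All 9 members were called, against 37.4% of the 14217 genes. The 4 higher stand beside 20.9% of genes called higher and the 5 lower beside 16.6% called lower. No member's arrays overlapped between the lines, which held for 45.3% of genes. The median over the members was -1.50 on the log2 scale and the median over all genes 0.11.

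**Figure D1:**
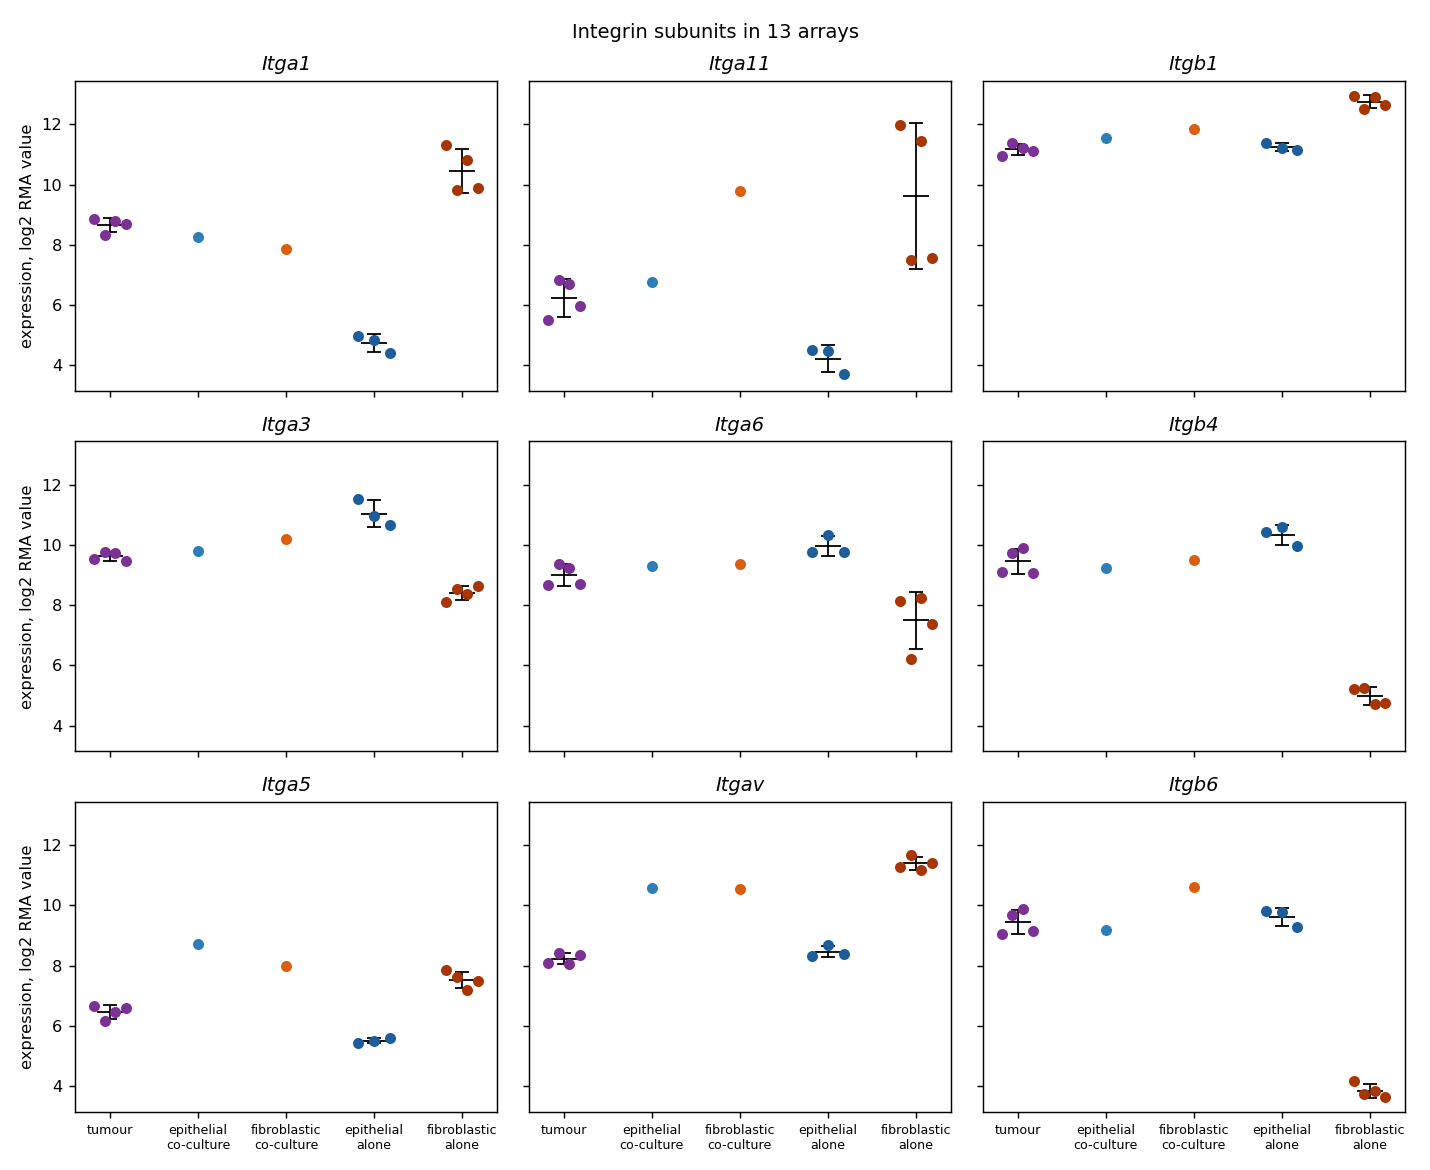
Expression (log2 RMA value, vertical axis) of the 9 integrin subunits in each array of the tumours, the co-culture arrays and the lines grown alone, with bars for the mean and SD of groups with replicates. The epithelial arrays lie above the fibroblastic arrays for Itga3, Itga6, Itgb4 and Itgb6 and below them for the other 5 subunits.

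Among the collagen receptors, Itga1 was at 4.96, 4.84 and 4.40 in the epithelial line, against 11.31, 9.81, 10.83 and 9.87 in the fibroblastic line. No array overlapped between the lines, the epithelial values were near the low end of the scale, and the difference was -5.73 (SE 0.38, 53.0-fold, limma adjusted p = 1.34e-05). Itga11, the collagen receptor subunit of fibroblasts, was at 4.50, 4.47 and 3.71 in the epithelial line, against 11.98, 7.49, 11.43 and 7.55 in the fibroblastic line. The difference was -5.39 with a wide SE of 1.16 (adjusted p = 0.00768), and the fibroblastic arrays differed among themselves, as described below. Itgb1, the partner of both, was at 11.25 ± 0.13 in the epithelial line (SD, n = 3) and 12.75 ± 0.21 in the fibroblastic line (SD, n = 4). Its difference of -1.50 (SE 0.16, adjusted p = 0.000211) was the smallest of the 9, and its 2 probe sets gave the same value.

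Among the laminin receptors, Itgb4 was at 10.42, 10.61 and 9.97 in the epithelial line, against 5.21, 5.26, 4.72 and 4.75 in the fibroblastic line, a difference of 5.35 (SE 0.22, 40.7-fold, adjusted p = 9.47e-07). Its partner Itga6 differed less, at 9.78, 10.33 and 9.77 in the epithelial line, against 8.14, 6.22, 8.24 and 7.37 in the fibroblastic line (2.47, SE 0.47, adjusted p = 0.00433). Itga6 varied among the fibroblastic arrays, and Itgb4 did so less. Of the 4 probe sets of Itga6, 3 gave a positive difference (2.47, 1.80 and 1.33) and the dimmest gave -0.05. Itga3 was at 11.04 ± 0.44 in the epithelial line (SD, n = 3) and 8.41 ± 0.24 in the fibroblastic line (SD, n = 4), which differ by 2.63 (SE 0.23, adjusted p = 6.87e-05).

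Among the receptors for fibronectin and TGF-beta, Itgb6 had the largest difference of the 9. It was at 9.80, 9.76 and 9.27 in the epithelial line, against 4.16, 3.73, 3.84 and 3.64 in the fibroblastic line (5.77, SE 0.20, 54.5-fold, adjusted p = 3.49e-07). Its only partner Itgav went the other way, at 8.46 ± 0.18 in the epithelial line (SD, n = 3) and 11.39 ± 0.22 in the fibroblastic line (SD, n = 4), which differ by -2.93 (SE 0.17, adjusted p = 6.11e-06). The other 2 probe sets of Itgav gave -2.04 and -1.82. Itga5, which with Itgb1 forms the main fibronectin receptor, was at 5.43, 5.48 and 5.61 in the epithelial line, against 7.84, 7.61, 7.18 and 7.47 in the fibroblastic line (-2.02, SE 0.18, adjusted p = 6.81e-05).

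The promoters of 4 members are shown because these genes carry the patterns described here: Itgb6 the largest difference between the lines, Itgb1 the smallest, Itga11 the widest spread among fibroblastic arrays, and Itga5 the level in co-culture above both lines. Each is 300 bases of the RefSeq assembly GRCr8, 250 before to 50 after the annotated start, 5′ to 3′ on the gene's strand. RefSeq's table had such a sequence for 8 of the 10 listed subunits. Capitals mark matches, on either strand, to the GC box GGGCGG, the TEAD motif GGAATG and the CAGA box CAGACA. The AP-1 motif TGANTCA was searched too, and no matches overlap in these 4 windows.
Itgb6, chr3:65530284-65530583, minus strand: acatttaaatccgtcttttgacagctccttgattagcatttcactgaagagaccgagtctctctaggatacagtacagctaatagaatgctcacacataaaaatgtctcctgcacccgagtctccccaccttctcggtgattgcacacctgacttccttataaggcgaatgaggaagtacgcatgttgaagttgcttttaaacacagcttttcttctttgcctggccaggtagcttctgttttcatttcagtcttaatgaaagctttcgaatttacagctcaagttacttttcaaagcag
Itgb1, chr19:73602027-73602326, plus strand: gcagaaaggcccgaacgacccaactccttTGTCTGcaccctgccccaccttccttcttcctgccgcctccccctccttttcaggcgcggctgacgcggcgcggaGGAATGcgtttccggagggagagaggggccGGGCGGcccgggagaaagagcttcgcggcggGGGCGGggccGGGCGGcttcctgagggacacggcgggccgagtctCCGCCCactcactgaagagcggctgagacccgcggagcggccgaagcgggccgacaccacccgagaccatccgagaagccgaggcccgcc
Itga11, chr8:72041182-72041481, plus strand: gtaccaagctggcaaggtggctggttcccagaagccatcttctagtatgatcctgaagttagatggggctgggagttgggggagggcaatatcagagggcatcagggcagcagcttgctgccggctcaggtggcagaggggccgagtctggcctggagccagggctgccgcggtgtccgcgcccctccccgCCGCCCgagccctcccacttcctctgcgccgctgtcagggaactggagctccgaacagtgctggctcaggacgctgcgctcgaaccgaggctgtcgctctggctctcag
Itga5, chr7:136381256-136381555, minus strand: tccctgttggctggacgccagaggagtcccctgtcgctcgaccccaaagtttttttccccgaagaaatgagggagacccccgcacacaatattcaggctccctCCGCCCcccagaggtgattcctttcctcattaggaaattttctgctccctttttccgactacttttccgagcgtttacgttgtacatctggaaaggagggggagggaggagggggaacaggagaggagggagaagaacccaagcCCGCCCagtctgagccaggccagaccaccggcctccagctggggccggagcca
The Itgb6 window was 41.7% G or C with 7 CG pairs, and none of the motifs was in it, while the Itgb1 window was 71.7% G or C with 35 CG pairs. Across the promoters of 33469 genes the median was 51.7%. The Itgb1 window held 4 GC boxes, 1 TEAD motif and 1 CAGA box. The Itga11 window (65.7%) held 1 GC box and the Itga5 window (58.7%) held 2. Of all promoters, 33.1% held a GC box, 14.2% the TEAD motif, 21.1% the CAGA box and 7.33% the AP-1 motif, which was in none of the 4 windows. The Itgb6 window lies inside the annotated gene, not at its outermost start.

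Some genes around the receptors differed between the lines as well. Their counts, here and in the next paragraph, are to be read against 37.4% of all genes called, 20.9% higher and 16.6% lower. Called in either direction, the hemidesmosome and tetraspanin partners and the other integrin subunits are near that share. Of 18 measured ligands in the interstitial matrix, 15 were lower in the epithelial line (median -5.79), led by Postn (-10.18), Col1a2 (-10.01) and Fn1, which encodes fibronectin (-9.27). Of 12 basement membrane ligands, 2 were higher and 7 lower in the epithelial line (median -1.18). Lamb3, a chain of the epithelial laminin that the Itga6 and Itgb4 pair binds, was at 10.52 ± 0.47 in the epithelial line (SD, n = 3) and 4.40 ± 0.36 in the fibroblastic line (SD, n = 4), which differ by 6.13 (SE 0.27, adjusted p = 1.47e-06). The laminin chain Lama4 (-5.58) and the nidogen Nid1 (-8.81) were lower in the epithelial line.

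Inside the cell, 14 of 23 genes of focal adhesions and integrin activation were lower in the epithelial line and 2 higher (median -1.11). The actin linkers Tns1 (-4.55) and Lims2 (-3.88) and the paxillin relative Tgfb1i1 (-3.38) differed most. Of 9 hemidesmosome and tetraspanin partners, 2 were higher and 2 lower, with the tetraspanins Tspan8 (9.05) and Cd81 (-8.02) and the linker Dst (-3.51) in front. Among 6 measured receptors for collagen and matrix outside the integrin family, 2 were higher and 2 lower, including the collagen-binding receptor kinase Ddr2 (-6.32), the proteoglycan Cspg4 (-2.81) and the syndecan Sdc1 (2.58). Of 13 other integrin subunits, 5 were lower in the epithelial line and 8 were not called, with Itgb3 (-4.03), Itga7 (-3.54) and Itga8 (-2.90) lowest.

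The 4 fibroblastic arrays did not agree on Itga11. Arrays 1 and 3 were at 11.98 and 11.43, and arrays 2 and 4 at 7.49 and 7.55, so the group's SD was 2.43, larger than that of 99.8% of genes (median SD 0.24). Itga6 (SD 0.93) and Itga1 (SD 0.74) also spread more than 95.9% and 93.0% of genes in this group. Both were higher in arrays 1 and 3 than in arrays 2 and 4, as the values above show. The other 6 members had SDs of 0.21 to 0.29 there, but some of them also followed the pairs of arrays. Itgb1 was at 12.95 and 12.92 in arrays 1 and 3 and at 12.52 and 12.63 in arrays 2 and 4. Itgb6, near the low end of the scale, was higher in arrays 1 and 3 too. Itga3 (8.10 and 8.37, against 8.55 and 8.63) and Itgav (11.28 and 11.18, against 11.68 and 11.41) were lower in arrays 1 and 3. Itga5 and Itgb4 overlapped. Acta2 and Tagln, contractile genes of myofibroblasts picked after their values were seen, stood at 12.13 and 14.36 in array 1 and at 12.04 and 14.20 in array 3. They stood at 9.29 and 11.91 in array 2 and at 10.29 and 12.97 in array 4. They belong to the 10 fibroblastic markers, which did not move as 1: 5 were higher in arrays 1 and 3 than in arrays 2 and 4, 4 were lower and 1 overlapped. Among the lower ones Dcn, which encodes the proteoglycan decorin, was at 4.34 and 4.26 in arrays 1 and 3 and at 6.84 and 6.53 in arrays 2 and 4, and the receptor Pdgfrb was at 10.23 and 10.16 in arrays 1 and 3 and at 11.25 and 10.77 in arrays 2 and 4.

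**Figure D2:**
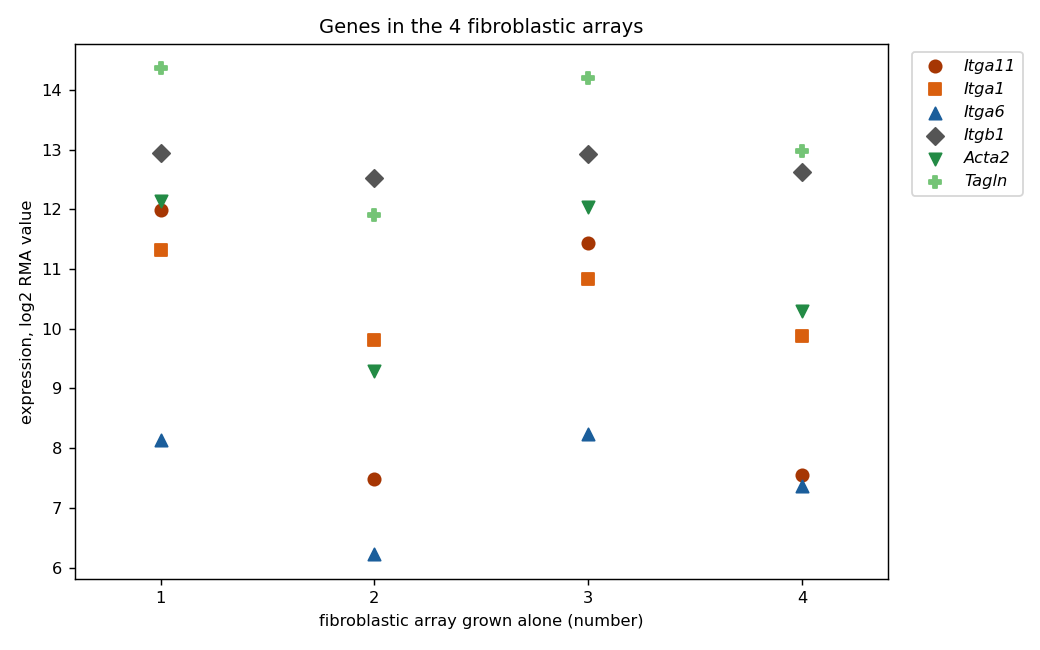
Expression (log2 RMA value, vertical axis) of 4 integrin subunits and of the contractile genes Acta2 and Tagln in the 4 arrays of the fibroblastic line grown alone (horizontal axis, array number). Itga11 stands at 11.98 and 11.43 in arrays 1 and 3 and at 7.49 and 7.55 in arrays 2 and 4. Itgb1 is also higher in arrays 1 and 3, but over a narrower range of 12.52 to 12.95.

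Over all genes, arrays 1 and 3 correlated at 0.987 and arrays 2 and 4 at 0.990, against 0.947 to 0.961 for the other pairs. The 3′ minus 5′ log2 level of the beta-actin control probe sets, a measure of RNA quality, was 1.72 and 1.045 in arrays 1 and 3 and 2.65 and 2.01 in arrays 2 and 4. For the GAPDH control probe sets the pairs overlapped, at 0.151 and -0.038 in arrays 1 and 3 and 0.27 and 0.146 in arrays 2 and 4. The part of RNA quality in the Itga11 values was not tested. With each array of the 2 lines left out in turn, Itga11 differed between the lines by -6.10 to -4.60 (adjusted p up to 0.0324).

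The tumours were set against each line to see which receptor levels the tissue shares with its cultured cells. Against the epithelial line, Itga1 and Itga5 were higher in the tumours and Itga3 and Itgb4 lower, 4 of 9 members called against 52.1% of all genes, a share near that background (18.9% of genes higher and 33.2% lower). Against the fibroblastic line all 9 were called, against 60.9% of genes (27.3% higher and 33.5% lower). Itgb6, Itgb4, Itga6 and Itga3 were higher in the tumours, and Itgav, Itga11, Itga1, Itgb1 and Itga5 lower. Tumour arrays lay apart from the epithelial arrays for 6 members (58.3% of genes) and from the fibroblastic arrays for all 9 (58.2% of genes). The 3′ minus 5′ level of beta-actin moved with the groups too, at 0.606 to 0.752 in the tumours. It was 0.856 to 1.469 in the epithelial and 1.045 to 2.648 in the fibroblastic line. The GAPDH control ordered the groups otherwise, with tumours (-0.084 to -0.005) above the epithelial line (-0.142 to -0.096) and overlapping the fibroblastic line (-0.038 to 0.27). The part of RNA quality in these differences and in those between the lines was not tested. The 2 comparisons share the tumour arrays, and their medians over the members were -0.18 and -1.06, against -0.17 and -0.07 over all genes.

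**Figure D3:**
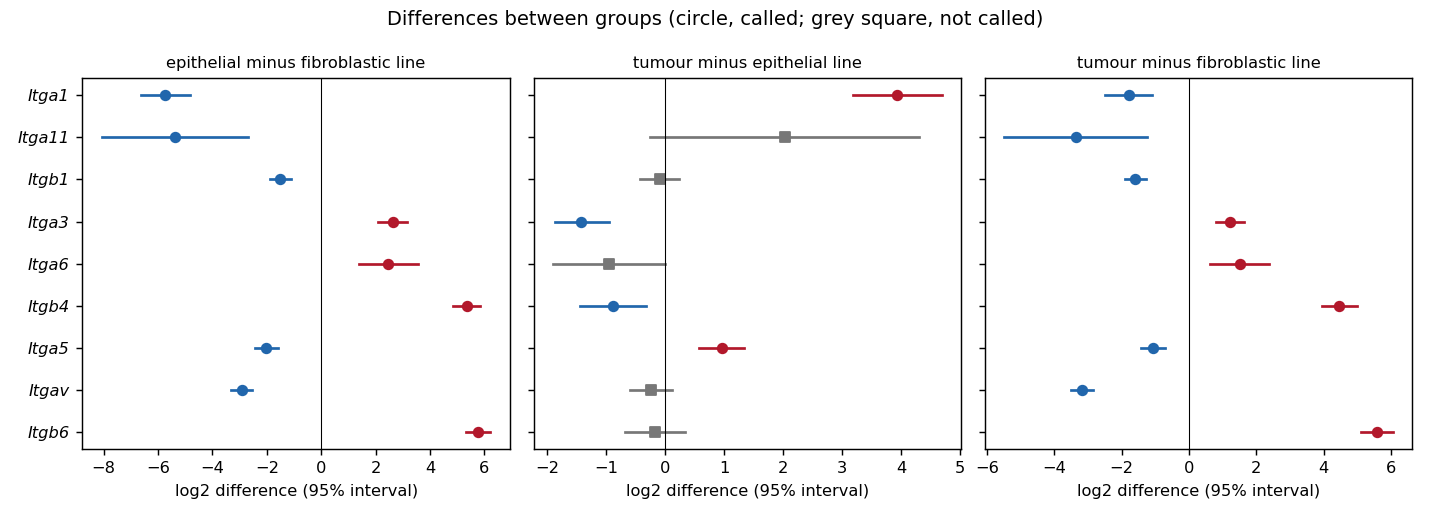
Log2 differences of the 9 subunits with 95% intervals from limma, for the epithelial minus the fibroblastic line, the tumours minus the epithelial line and the tumours minus the fibroblastic line. Circles passed an adjusted p of 0.05 (red higher, blue lower) and grey squares did not, and the horizontal scales differ between panels. Against the epithelial line Itga1 has the largest difference (3.94), while Itgb6, Itgav and Itgb1 lie near 0.

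Itga1 was at 8.87, 8.33, 8.78 and 8.69 in the tumours, above every epithelial array (3.94, SE 0.34, adjusted p = 1.16e-05) and below every fibroblastic array (-1.79, SE 0.32, adjusted p = 0.000671). Itga11 was at 5.49, 6.84, 6.69 and 5.98 in the tumours. That is below every fibroblastic array, with a difference of -3.36 (SE 0.96, adjusted p = 0.0111), and above every epithelial array, with a difference of 2.03 that was not called (SE 1.03, adjusted p = 0.122). Without tumours 1 and 4, the 2 highest in the liver gene Alb, the difference from the fibroblastic line was -2.85 and no longer called (adjusted p = 0.0913). Tumour 3, nearly as high in Alb, stayed in that fit, and the part of liver content was not tested. When only tumours and epithelial arrays were fitted, without the spread of the fibroblastic line, the difference from the epithelial line was called (adjusted p = 0.00306). Itga1 and Itga11 therefore ranked alike, with fibroblastic arrays highest, tumours next and epithelial arrays lowest.

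Itgb4 was at 9.11, 9.73, 9.90 and 9.06 in the tumours, 4.46 above the fibroblastic line (SE 0.23, adjusted p = 1.37e-07). Tumours had less of it than the epithelial line did, with a difference of -0.89 (SE 0.25, adjusted p = 0.0136). That call ended without epithelial array 2 (-0.75, adjusted p = 0.0565), after a further quantile normalization (-0.54, 0.0994) and without tumours 1 and 4 (-0.52, 0.137). Itga3 was at 9.62 ± 0.15 in the tumours (SD, n = 4), which was -1.42 against the epithelial line (SE 0.20, adjusted p = 0.000320) and 1.21 against the fibroblastic line (SE 0.19, adjusted p = 0.000295). No tumour array overlapped either line for Itga3.

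Itga6 was at 8.68, 9.38, 9.24 and 8.71 in the tumours, 1.51 above the fibroblastic line (SE 0.40, adjusted p = 0.00726). Against the epithelial line its difference of -0.95 missed the threshold (adjusted p = 0.0840), and its probe sets disagreed, with 0.54, 0.84 and 0.47 for the other 3. When only tumours and epithelial arrays were fitted, the difference of the brightest probe set was called (adjusted p = 0.0112). With the mean of all 4 the difference was 0.22 (adjusted p = 0.462), so the direction of Itga6 between tumours and epithelial line depended on the probe set.

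Itgb6 was at 9.05, 9.66, 9.88 and 9.15 in the tumours, overlapping the epithelial arrays (9.27 to 9.80). Its difference from that line was -0.18 (95% interval -0.68 to 0.33, adjusted p = 0.536), and from the fibroblastic line 5.59 (SE 0.21, adjusted p = 1.39e-08). Itgav was at 8.08, 8.41, 8.05 and 8.34 in the tumours, below every fibroblastic array, with a difference of -3.17 (SE 0.15, adjusted p = 5.56e-08). Of 10 fibroblastic markers, 7 were lower in the tumours as well and 2 higher (median -1.41), the higher ones being Dcn (11.76 to 12.59 in tumours, 4.26 to 6.84 in the fibroblastic line) and Lum (11.27 to 12.12 in tumours, 3.52 to 5.34 in the fibroblastic line). The part of these markers in the Itgav level was not tested. Against the epithelial line Itgav differed by -0.24 (95% interval -0.59 to 0.11, adjusted p = 0.222). Its other 2 probe sets gave -1.40 and -0.86, and the mean of the 3 was lower in the tumours by -0.83 (adjusted p = 0.00154).

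Itga5 was at 6.65, 6.15, 6.46 and 6.59 in the tumours, 0.96 above the epithelial line (SE 0.17, adjusted p = 0.00115) and -1.06 against the fibroblastic line (SE 0.16, adjusted p = 0.000226). Itgb1 was at 11.16 ± 0.17 in the tumours (SD, n = 4), which was -1.59 against the fibroblastic line (SE 0.14, adjusted p = 4.30e-06) and -0.09 against the epithelial line (95% interval -0.42 to 0.24, adjusted p = 0.635). For the shared beta subunit the tumour and epithelial arrays overlapped.

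No member was on the same side of both lines: 0 of 9 were called in both comparisons with the same sign by limma, and 0 of 9 at an unadjusted p under 0.05. Over all genes 12.0% were above both lines and 17.9% below both. For 7 members the tumour mean lay between the line means, and for Itgav and Itgb1 it lay below both. With the mean of all probe sets, Itgav was called below both lines.

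Other integrin subunits did exceed both lines in the tumours. Of 13 measured, 6 were above both, namely Itgb2, Itgal, Itgam, Itgax, Itgb7 and Itga9, and all but Itga9 are known as subunits of white blood cells. Itgb2, the beta subunit that Itgal, Itgam and Itgax share, was at 9.33 ± 0.26 in the tumours (SD, n = 4), while the epithelial line had 4.83 ± 0.47 (SD, n = 3) and the fibroblastic line 4.71 ± 0.34 (SD, n = 4). Itgb2 is also 1 of the 14 macrophage and myeloid markers used above. Its difference from the epithelial line was 4.50 (SE 0.25, adjusted p = 4.08e-07) and from the fibroblastic line 4.61 (SE 0.23, adjusted p = 9.68e-08). Itgam differed from the epithelial line by 2.54 and Itgal from the fibroblastic line by 2.79. Ptprc, which marks white blood cells, was at 6.93 to 7.42 in the tumours and at 4.28 to 4.59 in both lines. Pecam1, which marks endothelium, was at 6.90 to 7.63 in the tumours, while the epithelial line had 5.37 to 5.94 and the fibroblastic line 4.41 to 4.96. The part of these cells in the tumour levels of Itga1 and the other members was not tested.

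**Figure D4:**
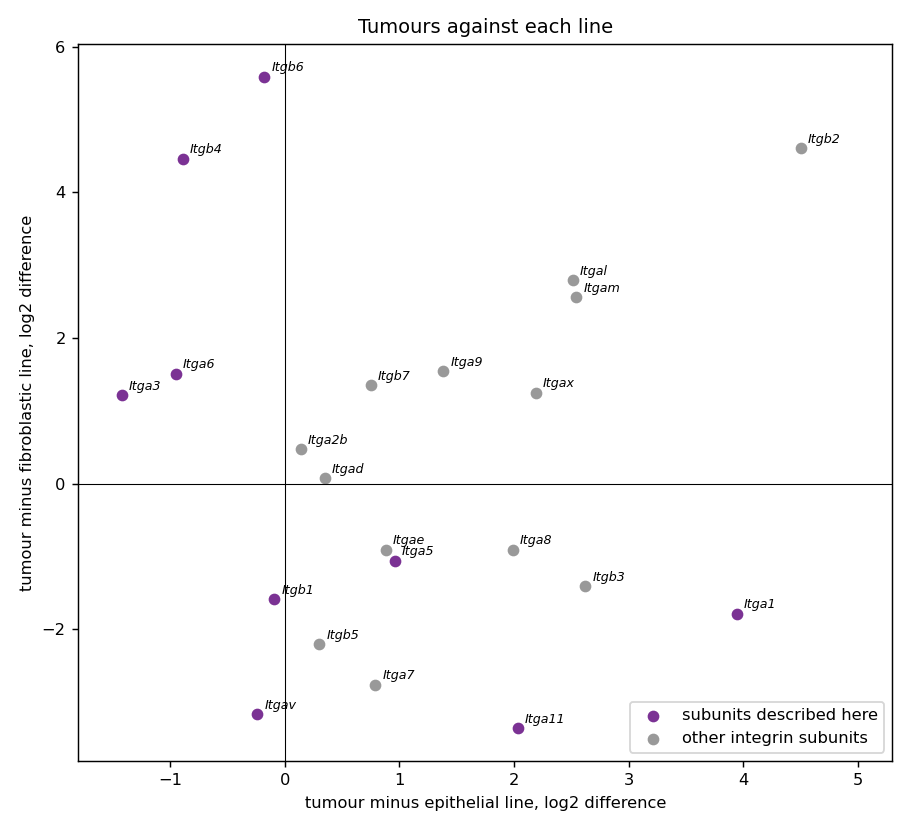
Log2 difference of the tumours from the epithelial line (horizontal axis) and from the fibroblastic line (vertical axis) for the 9 subunits described here and 13 other integrin subunits. Itgb2, Itgal and Itgam stand in the upper right, above both lines, and none of the 9 subunits does.

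Some ligands and partners of the receptors differed between tumours and lines too, and their counts are to be read against the 52.1% of all genes called against the epithelial line and the 60.9% against the fibroblastic line. The hemidesmosome counts, those of the 6 other collagen and matrix receptors, and the focal adhesion count against the epithelial line are near those shares. Of 18 interstitial ligands, 14 rose in tumours relative to the epithelial line and 1 fell, with Col1a2 (8.65), Postn (8.49) and Fn1 (7.88) in front. Against the fibroblastic line 3 were higher and 13 lower, including the matricellular protein Ccn1 (-3.81) and the latent TGF-beta binding protein Ltbp1 (-3.06). Vtn, vitronectin, a plasma protein from the liver and a ligand of Itgav receptors, was 5.64 above the fibroblastic line (SE 1.27, adjusted p = 0.00307), but stood at 12.77, 5.81, 10.84 and 13.08 in tumours 1 to 4. Alb, which encodes albumin, was at 14.51, 7.50, 13.94 and 14.46 in the same tumours.

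Of 12 basement membrane ligands, 5 rose and 4 fell relative to the epithelial line, with Nid1 (7.0), Col4a1 (4.60) and Lama4 (2.75) in front, while 3 rose and 8 fell relative to the fibroblastic line. In that comparison Lamb3 (4.56), Lamc1 (-3.14) and Lamb2 (-2.93) differed most. Of 23 focal adhesion genes, 18 fell in tumours relative to the fibroblastic line and 2 rose (median -1.21), including Vcl, vinculin (-3.53), Tgfb1i1 (-3.13) and Actn1, an actinin (-2.66). Against the epithelial line 6 were higher and 7 lower, with Fermt3, an integrin activator of blood cells (2.10), Tns1 (2.02) and Parvb (1.65) at the top. Of 9 hemidesmosome and tetraspanin partners, 3 were higher and 1 lower than in the epithelial line, with Cd81 (6.85), Cd82 (1.70) and the linker of Itgb4 to keratin, Plec (-1.44). Against the fibroblastic line 2 were higher and 3 lower, with Tspan8 (9.24), Dst (-2.99) and Cd82 (1.89). Among the 6 other collagen and matrix receptors, Ddr2 was 2.66 above the epithelial line and -3.67 against the fibroblastic line, the same ranking as Itga1 and Itga11. Cspg4 (1.17) and Ddr1 (-1.01) were called against the epithelial line too, and Sdc1 (2.53) and Cspg4 (-1.65) against the fibroblastic line, with 2 higher and 2 lower in the first comparison and 1 higher and 3 lower in the second.

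The co-culture arrays ask whether receptor levels change when the lines grow together. Each is a single array, assumed in the fit to vary like the replicated groups, and each held markers of both lines, so a difference from 1 line also holds the other line's transcripts. In the epithelial co-culture array 8 of 9 members lay between the arrays of the 2 lines, against 16.5% of all genes and 36.5% of the 6435 genes whose line arrays do not overlap. In the fibroblastic co-culture array 6 did, against 18.2% and 40.2%. The exceptions were Itga5 and Itgb6, with Itga11 within the range of the fibroblastic arrays.

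Itga5 was at 8.70 in the epithelial and 8.00 in the fibroblastic co-culture array, above all 3 epithelial arrays (5.43 to 5.61) and all 4 fibroblastic arrays (7.18 to 7.84). Both co-culture arrays exceeded every array of both lines for 5.80% of genes. The epithelial co-culture array was above the epithelial line by 3.19 (SE 0.27, adjusted p = 0.000269) and above the fibroblastic line by 1.17 (SE 0.26, adjusted p = 0.0265), and 0.935% of genes were called above both lines in this array. The second of these calls ended without fibroblastic array 4 (1.15, adjusted p = 0.0594) and with only the 2 groups in the fit (adjusted p = 0.0663). The fibroblastic co-culture array was above the epithelial line by 2.49 (adjusted p = 0.000972) and differed from the fibroblastic line by 0.48 (95% interval -0.13 to 1.08, adjusted p = 0.361). In the tumours Itga5 was lower than in either co-culture array, at 6.15 to 6.65.

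Itgb6 was at 10.62 in the fibroblastic co-culture array, above every array of both lines, as 9.15% of genes were in that array, and above every tumour. It was at 9.17 in the epithelial co-culture array, just under the lowest epithelial array (9.27). The fibroblastic co-culture array differed from the fibroblastic line by 6.78 (SE 0.29, 110-fold, adjusted p = 1.20e-05) and from the epithelial line by 1.01, which was not called (95% interval 0.33 to 1.69, adjusted p = 0.0865). The array labelled fibroblastic thus gave the highest Itgb6 value of the 13, and it also held Krt19 at 13.21, whose part was not tested. Itgb4 was at 9.49 in the fibroblastic and 9.23 in the epithelial co-culture array, below every epithelial array in both, and was 4.50 above the fibroblastic line in the fibroblastic co-culture array (SE 0.32, adjusted p = 0.000164).

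Itga1 was at 8.25 in the epithelial and 7.86 in the fibroblastic co-culture array. That was 3.52 against the epithelial line in the first (SE 0.58, adjusted p = 0.00970) and -2.60 against the fibroblastic line in the second (SE 0.56, adjusted p = 0.0281). The call against the fibroblastic line ended without fibroblastic array 3 (adjusted p = 0.05) and with only the 2 groups in the fit (0.0794). Itgav was at 10.57 and 10.55 in the epithelial and fibroblastic co-culture arrays, higher than in the epithelial line by 2.11 (SE 0.26, adjusted p = 0.00215) in the epithelial one. The other 2 Itgav probe sets gave smaller values for this difference (0.82 and 1.10), and the mean of the 3 was still called. Both values are above every tumour and every epithelial array and below every fibroblastic array. Itga3 was at 9.80 and 10.20 in the same arrays, and the second differed from the fibroblastic line by 1.79 (SE 0.34, adjusted p = 0.0164).

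Itga11 was at 6.78 in the epithelial and 9.79 in the fibroblastic co-culture array, the widest gap of any member between the 2 arrays. The second lay inside the split range of the fibroblastic arrays, with a difference of 0.18 (SE 1.70, adjusted p = 0.973). That value was 2.27 (adjusted p = 0.00947) without fibroblastic arrays 1 and 3 and -1.92 (adjusted p = 0.0327) without arrays 2 and 4, so no direction can be given. Itga6 (9.31 and 9.37) and Itgb1 (11.55 and 11.84) were not called in either co-culture array against the line of its label, with Itgb1 in the fibroblastic co-culture at -0.92 (SE 0.24, adjusted p = 0.0542). That lack of a call was not stable: for the fibroblastic co-culture, Itgb1 was called in 5 of 13 other settings and Itga6 in 1 of 13. In all, 3 of 9 members were called in the epithelial co-culture array, all higher, against 7.24% of genes (4.87% higher and 2.37% lower). In the fibroblastic one 4 of 9 were called, 3 higher and 1 lower, against 8.41% (4.78% higher and 3.63% lower). Against the other line, 4 members were higher (5.59% of genes) and 2 lower (5.38% of genes) in the epithelial co-culture array, and 3 were called in the fibroblastic one, all higher (7.64% of genes). The change from the line of its label differed between the 2 co-culture arrays for 6 of 9 members (8.43% of genes). Since both arrays held both lines' transcripts and all 9 members differ between the lines, these values largely repeat the difference between the lines with its sign turned (Itgb4 -5.60, against 5.35 between the lines) and are not read as a response to co-culture.

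Ligands and partners in the co-culture arrays can be set beside these. Of all genes, 4.87% were called higher and 2.37% lower in the epithelial co-culture array than in the epithelial line. For the fibroblastic co-culture array against the fibroblastic line these shares were 4.78% and 3.63%. Of 18 interstitial ligands, 10 were higher in the epithelial co-culture array than in the epithelial line (median 4.48), and 2 were lower in the fibroblastic co-culture array than in the fibroblastic line. Of 23 focal adhesion genes 3 were higher in the first comparison, and 2 were higher and 2 lower in the second. Of 13 other integrin subunits 3 were higher in the first, and 1 was higher and 3 were lower in the second. Macrophage and myeloid markers averaged 5.65 and 5.55 in the epithelial and fibroblastic co-culture arrays, near the 5.32 to 5.64 of the epithelial line and the 5.22 to 5.54 of the fibroblastic line.

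The genes whose levels followed each member most closely over the 13 arrays were found by Pearson's r, as a description, since the groups dominate any such correlation. Itgb4 was followed by Ampd3, Cdcp1 and Bcl3 (each 0.995) and Itgb6 by Cldn18 and Krt18 (each 0.990) and Il33 (0.988). Itga3 was closest to Usp43 (0.982), Rnf208 (0.977) and Ppdpf (0.976), and Itga6 to Mcat (0.979), Ezr (0.970) and Dsp (0.964). Of the members higher in the fibroblastic line, Itgav was closest to Adam33 (0.989), Ext2 (0.986) and Uggt2 (0.985). Itga1 was closest to Prss23 (0.980), Arhgap24 and Tacc1 (each 0.979), and Itgb1 to Ccdc65 (0.980), Ubl7 and Mustn1 (each 0.979). Itga5, with its high co-culture values, was closest to Efs (0.980), Des (0.968) and Il6 (0.962). Itga11 had the lowest best match of the 9, with Eif1a (0.95), Chn1 and Casq1 (each 0.947).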

How the data were processed

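Biotinylated cRNA was read on Affymetrix rat arrays of a single colour, per the labels' protocols. The authors deposited log2 expression values made with RMA, per the submitters' processing notes, and the log2 scale was read from their range (2.94 to 14.69). The sources used here give neither its version nor which arrays were normalized together. No further normalization was done. Of the 31099 probe sets on the array, 57 are controls and were not used, and 20826 that name 1 gene measured 14217 genes, with symbols updated through RefSeq identifiers.

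Linear models of group means were fitted to all genes with limma 3.58.1 (R 4.3.3), using moderated statistics, with Benjamini-Hochberg adjustment. Genes with an adjusted p under 0.05 were called. The 9 culture arrays were fitted together, as were the 11 arrays of tumours and lines grown alone. Intervals are at 95%. The sources used here do not say whether arrays of a group came from separate cultures, so p-values measure the spread between these arrays, and the number of arrays limits the precision. The members and lists were chosen with earlier results of these data known. Named genes are all members, the 3 called genes of each list with the largest differences, set markers, and the 3 genes most correlated with each member. Comparisons of each co-culture array with the other line, and fits without pairs of arrays, were added after seeing the data.

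On simulated data with 200 of 14217 genes changed, changes of 1 and 2 on the log2 scale were recovered for 44 and 87 of 100 genes between the lines, 51 and 90 for tumours against the epithelial line and 71 and 93 against the fibroblastic line. For the epithelial co-culture they were 7 and 51, for the fibroblastic co-culture 13 and 59, and for the difference between the changes in the 2 co-culture arrays 0 and 21. In that setting most co-culture changes of 1 were missed. The real comparisons called more genes than the 200 changed here, and the Benjamini-Hochberg cut depends on that number. Recovery with as many changed genes was not simulated. Tables and plots used Python 3.11.15, pandas 2.3.3 and matplotlib 3.10.9.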

Additional observations from a re-analysis of the deposited data

Results flagged for a closer look

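For 8 members the difference between the changes in the 2 co-culture arrays (the epithelial co-culture array minus the epithelial line, less the fibroblastic co-culture array minus the fibroblastic line) stood out. Limma called it for Itgb6 (-7.22, adjusted p = 5.49e-05), Itgb4 (-5.60, 0.000259), Itga3 (-3.03, 0.00720), Itgav (2.96, 0.00171), Itga5 (2.71, 0.00342) and Itga1 (6.12, 0.00257), 6 of 9 members against 8.43% of genes. For Itga6 (-2.52, adjusted p = 0.187) and Itgb1 (1.21, adjusted p = 0.0736) it was not called, but each co-culture array lay outside the arrays of the line of its label, in opposite directions. Both co-culture arrays held markers of both lines, so these values largely repeat the differences between the lines with the sign turned (Itga1 -5.73 and Itgb4 5.35 between the lines), and no response to co-culture can be read from them. None of the 18 groups of 4 arrays examined, 9 members in the tumours and in the fibroblastic line, held a single array apart from the rest by Dixon's criterion. The highest ratio of gap to range was 0.675, for Itga1 in tumour 2.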

How the results depend on the processing

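The 9 calls between the lines held under every alternative tried for that comparison, including each array left out. Member counts changed by over 1.5 times under 2 kinds of setting. At an adjusted p under 0.01, 2 members were called in place of 4 for the fibroblastic co-culture against its line and 2 in place of 6 for the epithelial co-culture against the fibroblastic line, and with the mean of all probe sets 1 member in place of 0, Itgav, was on the same side of both lines. Signs turned for 5 members, each for a difference that was not called. For tumours against the epithelial line, further quantile normalization gave Itgav 0.15, Itgb1 0.14 and Itgb6 0.21, centring on the array median gave Itgb1 0.11 and Itgb6 0.02, the mean of all probe sets gave Itga6 0.22 and Itgb1 0.02, and leaving out tumours 1 and 4 gave Itgb1 0.04 and Itgb6 0.16, none of them called. Itga11 in the fibroblastic co-culture ranged from -0.53 to 0.97 with single arrays left out (negative without fibroblastic array 2, and -0.51 without array 4), and was -1.92, which was called, without both. The causes were not tested. With single arrays left out, 9 members stayed called between the lines and for tumours against the fibroblastic line, 3 for the epithelial and 3 for the fibroblastic co-culture against the epithelial line, 6 for the difference between the changes in the 2 co-culture arrays, and 0 on the same side of both lines. The counts ran from 3 to 4 for tumours against the epithelial line, from 3 to 4 for the fibroblastic co-culture against its line, and from 4 to 5 for the epithelial co-culture against the fibroblastic line, where Itga3 was called with no array left out but missed the threshold with any 1 of the 4 fibroblastic arrays left out (adjusted p 0.0561 to 0.0688). Over all genes, calls between tumours and epithelial line fell to 4549 of 14217 without tumours 1 and 4, against 7407, and a single fit of 13 arrays gave 1743 for the epithelial co-culture, against 1029, and 1651 for the fibroblastic co-culture against the epithelial line, in place of 1086. Without fibroblastic arrays 1 and 3, 1839 genes were called for the fibroblastic co-culture against its line, in place of 1195. Same-numbered arrays deviated together with correlations of -0.148 to 0.143, against -0.194 to 0.196 for arrays of different numbers. Whether the replicate numbers pair arrays cannot be told from so few arrays. With the number as a block 9 members were called between the lines, 4 for tumours against the epithelial line and 9 against the fibroblastic line. No paired analysis was possible for the co-cultures because their labels carry no replicate number.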
